A study of Mus musculus with 6 samples.

Results

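Transcripts of 43 collagen chain genes were followed in the first mandibular molar of 4-day-old mice, with and without epithelial deletion of the Wnt ligand gene Wnt10a. The genes are every row of a table of 17582 genes whose symbol has the form of a collagen chain (Col, a type number, the letter a and a chain number), apart from Col17a1, which was set aside. The values are FPKM, fragments scaled by transcript length and by the size of the library, so levels can be compared between genes per unit of transcript length. The 6 libraries fall into 2 groups of 3, all from C57BL/6 mice at postnatal day 4. The knockout group carried K14-Cre; Wnt10aflox/flox and the control group, described as littermates, carried Wnt10aflox/flox without Cre, so that floxed Wnt10a alleles are common to both. K14-Cre is a recombinase under the keratin 14 promoter, which is active in epithelium. Mesenchymal cells, which make most collagen, are therefore outside the tissue in which the Cre is expressed by design. The number of animals behind each library is not in the labels, so p-values measure only the spread between these samples, and in a whole molar fewer cells of a type and less RNA per cell cannot be told apart.

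Collagens are proteins in which 3 alpha chains wind into a triple helix, and each gene here encodes 1 such chain. The helix requires glycine, the smallest amino acid, at the first position of each amino acid triplet, because only glycine fits in the centre of the helix. Fibrillar collagens form the banded fibrils of dentin, bone, pulp and ligament, and type I is the main organic component of dentin and bone. Type IV forms the network of basement membranes, type VI forms beaded filaments around cells, and FACIT collagens (fibril-associated collagens with interrupted triple helices) sit on the surface of fibrils. At postnatal day 4 the odontoblasts of the mouse molar are laying down dentin while ameloblasts are laying down enamel.

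The feature that defines the family can be read in the coding sequences. In the stretches shown here, from GENCODE release M21 on GRCm38, glycine codons (GGN) that open a triplet of a run are in capitals, and bases are counted from the start codon. Col1a1 (chromosome 11, plus strand, coding bases 502 to 561), Col1a2 (chromosome 6, plus strand, 289 to 348) and Col6a1 (chromosome 10, minus strand, 766 to 825) are shown from the start of their longest unbroken run, and Col4a1 (chromosome 8, minus strand, 460 to 519) across the end of one, where the spacing of the glycine codons breaks.
Col1a1: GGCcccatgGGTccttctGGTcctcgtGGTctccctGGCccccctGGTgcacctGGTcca
Col1a2: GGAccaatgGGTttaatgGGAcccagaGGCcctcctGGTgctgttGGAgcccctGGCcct
Col6a1: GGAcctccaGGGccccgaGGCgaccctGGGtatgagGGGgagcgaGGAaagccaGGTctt
Col4a1: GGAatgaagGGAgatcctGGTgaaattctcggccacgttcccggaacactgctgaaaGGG

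All 43 genes had a coding sequence in the annotation, and the length of the longest unbroken run separated the fibrillar chains from the others. In the 11 fibrillar chains it was between 216 and 344 triplets, with 338 in Col1a1 and 339 in Col1a2. The shortest fibrillar runs belonged to Col24a1 (216 triplets) and Col27a1 (217 triplets). In the 6 type IV chains it was between 39 and 66 triplets, in the 6 type VI chains between 37 and 87, and in the 9 FACIT chains between 32 and 113. Type IV chains nevertheless had much of their coding sequence in such runs. In Col4a1 79.7% of codons lay in runs of 3 triplets or more, spread over 18 runs of 10 triplets or more, against 73.3% of codons and 2 such runs in Col1a1. In Col12a1 8.19% of codons lay in runs.

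**Figure D1:**
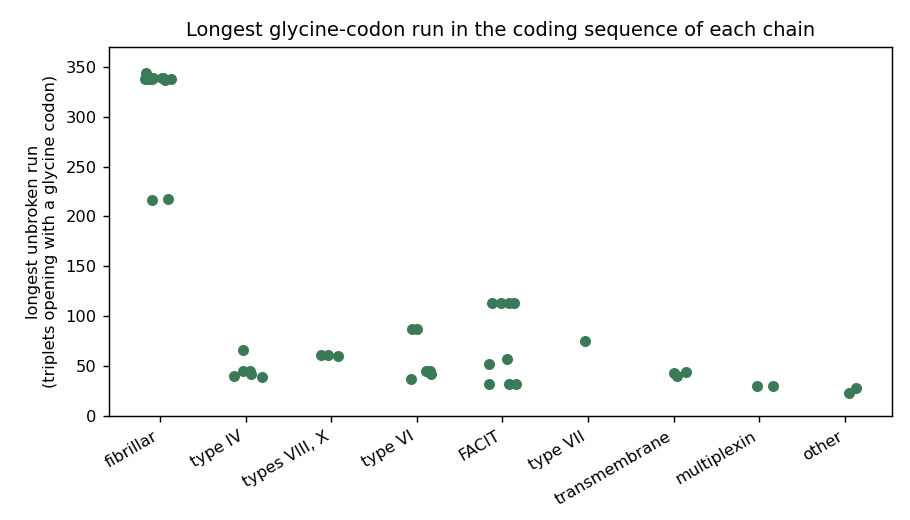
Longest unbroken run of triplets that open with a glycine codon (y axis) in the coding sequence of each of the 43 collagen chains, grouped by structural class (x axis). Each point is 1 gene, spread sideways for legibility; all 11 fibrillar chains lie at 216 triplets or more and every other chain at 113 or fewer.

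The libraries had estimated depths between 17720000 and 18380000 reads, from the steps between low FPKM values. Wnt10a was lower in each knockout library (19.39, 19.94 and 18.07 FPKM) than in each control library (33.61, 36.59 and 31.68 FPKM), which is -0.79 on the log2 scale (SE 0.0766, adjusted p = 0.00609 by limma). It was the 1 gene of 11934 tested that passed an adjusted p of 0.05, which is 0.00838% lower in the knockout and 0% higher. The 6 listed ameloblast markers and 4 of the 5 listed odontoblast markers were above 1 FPKM in every library. The remaining odontoblast marker, Mepe, was between 0.03 and 0.30 FPKM. Skeletal muscle markers differed between single libraries. The summed FPKM of 8 such markers was 13.5, 15.0 and 80.9 in knockouts 1, 2 and 3 and 73.5, 7.71 and 55.4 in controls 1, 2 and 3, and Krt13, an oral mucosa keratin, was at 94.24 FPKM in control 1 and at 2.76 FPKM or less elsewhere.

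Collagen transcript levels were dominated by type I. Of the 43 chains, 4 averaged 100 FPKM or more over the 6 libraries, 17 averaged 10 to 100, 11 averaged 1 to 10 and 11 averaged under 1. Col1a1 took 62.2% and Col1a2 27.2% of the summed collagen FPKM. Among all genes of the table Col1a1 ranked 4 and Col1a2 ranked 7 by mean FPKM. All fibrillar chains together made up 95.1%, FACIT chains 1.43%, type IV chains 1.38% and type VI chains 0.877%. After type I came Col11a2 (153 FPKM over the 6 libraries) and Col3a1 (152 FPKM), followed by Col5a2 (78.4), Col4a1 (71.7), Col27a1 (58.6), Col4a2 (50.7), Col9a3 (45.7) and Col11a1 (45.3). Col11a2 had means of 139 ± 39.2 FPKM with the deletion and 167 ± 16.5 FPKM without it, and Col3a1 of 147 ± 36.4 and 157 ± 9.30 FPKM (SD, n = 3 each), so their order turned with the group and was not separated from the spread.

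**Figure D2:**
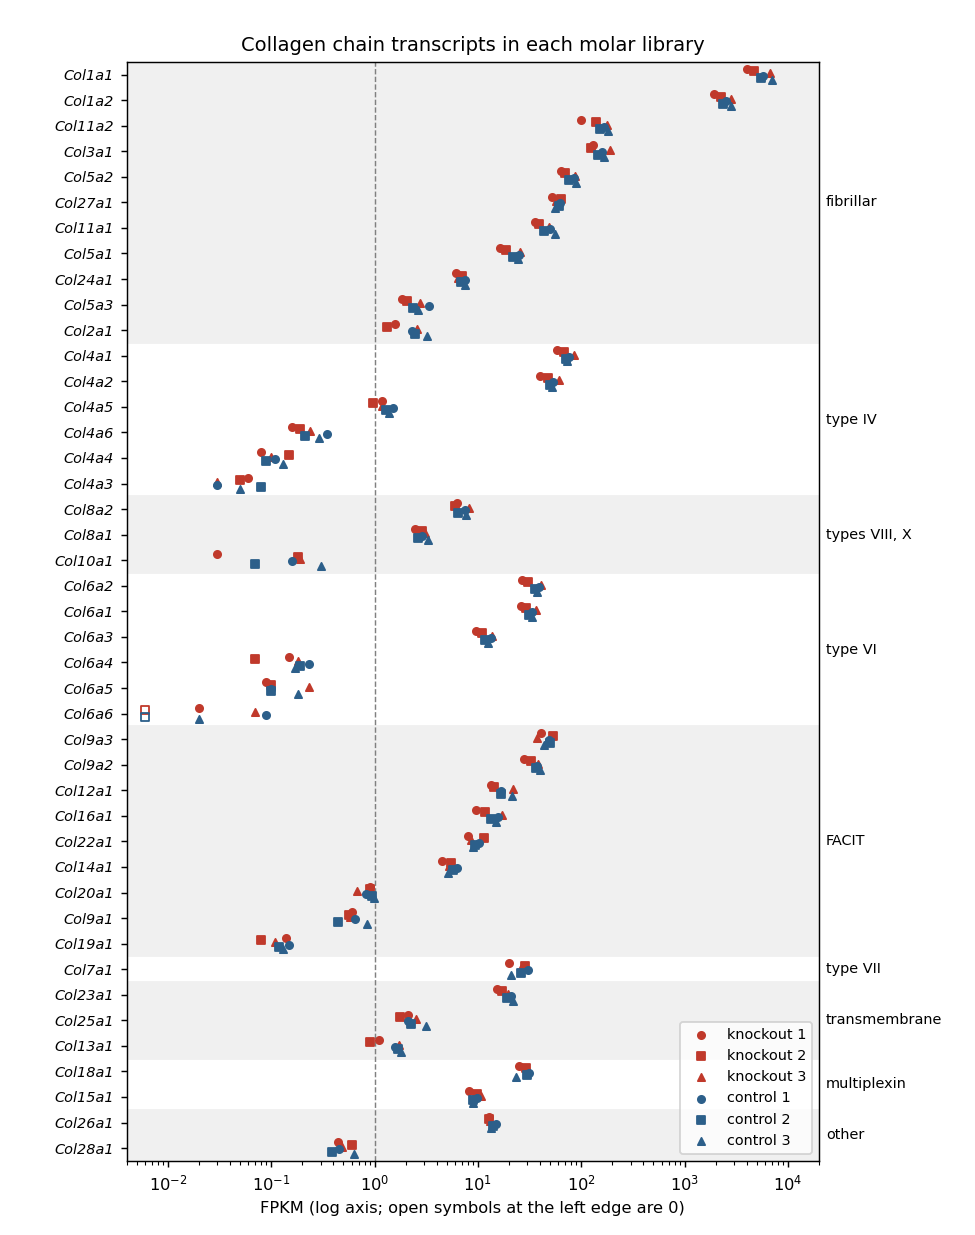
FPKM (log axis) of each of the 43 collagen chains in the 3 knockout libraries (red) and the 3 control libraries (blue), grouped by structural class; the dashed line marks 1 FPKM. Levels run from 0 FPKM for Col6a6 in knockout 2 and control 2 to 6945.61 FPKM for Col1a1 in control 3, and the symbols of both groups intermingle for most chains.

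No collagen chain passed the test for a difference between knockout and control. A chain was tested if 3 or more of the libraries had it at 1 FPKM or higher, which held for 32 of the 43. None of these 32 met the filter through 1 group alone. By limma on log2(FPKM + 1), with adjustment over all 11934 genes, the lowest adjusted p among them was 0.869. At an unadjusted p under 0.05, 2 of the 32 were lower (6.25%, against 2.71% of all genes tested) and 0 were higher (against 2.99%). The groups did not overlap for 2 chains, both lower in the knockout (6.25%, against 5.35% of all genes tested), and for 0 higher in it (against 4.80%). The 95% intervals of all 32 lay between -0.74 and 0.26, so none reached a change of 1 on this log2 scale, which understates changes of low genes.

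Fold changes of the collagen chains nevertheless leaned to 1 side. The estimate was below 0 for 30 of the 32 chains, or 93.8%, while 51.8% of all genes tested were below 0, and the median was -0.14 against -0.005 over all genes tested. The chains were measured in the same 6 libraries, so these 30 are not independent observations. The size of the lean depended on single knockout libraries. Without knockout 1 the median was -0.071 and 24 of 32 chains were below 0, against 53.0% of all genes tested. Without knockout 3 the median was -0.252 and 31 of 32 were below 0, against 42.9% of all genes tested. Even without knockout 3 the lowest limma adjusted p among the chains was 0.141. At an unadjusted limma p under 0.05 there were then 19 of 32 chains, and 1707 of all 11934 genes tested. Without knockout 1 these counts were 0 and 333.

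**Figure D3:**
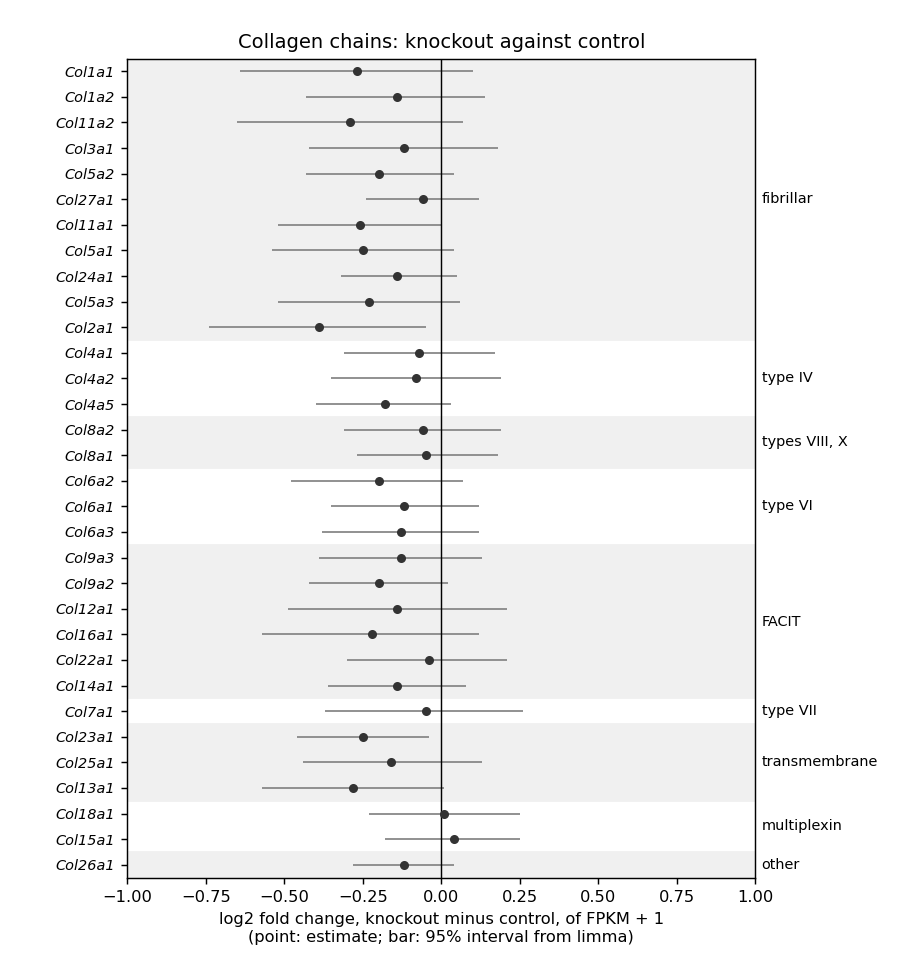
Log2 fold change of knockout minus control on the log2(FPKM + 1) scale (points) with 95% intervals from limma (bars) for the 32 tested collagen chains, grouped by structural class. Estimates run from -0.39 for Col2a1 to 0.04 for Col15a1, and the intervals of all but 2 chains, Col23a1 and Col2a1, include 0.

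The lowest library was mostly the same from chain to chain, and the highest varied. Knockout 1 held the lowest value of all 6 libraries for 24 of the 32 tested chains (75.0%), while it did so for 21.5% of all genes tested. Knockout 2 was lowest for 6 chains. Knockout 3 held the highest value for 12 chains (37.5%, against 6.43% of all genes tested) and control 3 for 11 (34.4%, against 10.1%), with control 1 highest for 6 and knockout 2 for 3. The median deviation of the chains from their own mean over the 6 libraries was -0.27, -0.12 and 0.15 on the log2 scale in knockouts 1, 2 and 3, and 0.11, 0.00 and 0.11 in controls 1, 2 and 3. Over all genes tested the corresponding medians lay between -0.06 and 0.04. The knockouts thus spread more widely than the controls. The coefficient of variation of Col1a1 was 26.3% in the knockout and 12.7% in the control, and that of Col11a2 28.2% and 9.91%, while the medians over all genes tested were 8.35% and 7.36%. It was larger in the knockout for 28 of 32 chains, and for 56.8% of all genes tested.

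**Figure D4:**
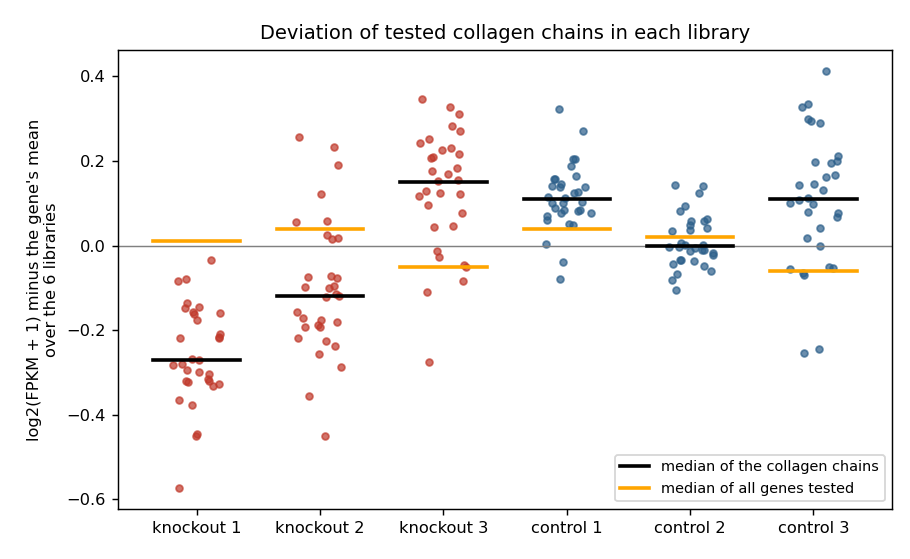
Deviation of log2(FPKM + 1) from the gene's mean over the 6 libraries (y axis) for the 32 tested collagen chains (points, spread sideways) in each library (x axis), with the median of the chains (black bar) and of all genes tested (orange bar). The chains lie lowest in knockout 1, at a median of -0.27, and highest in knockout 3, at 0.15, while the orange bars stay between -0.06 and 0.04.

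Transcript length moved with the low values of knockout 1 and, in the opposite direction, with the values of control 1, but not with the values of knockouts 2 and 3. Collagen transcripts are long, with a median of 6021 bases for the 32 tested chains against 2911 bases for all genes tested, and long transcripts were low in knockout 1 in general. Among genes of 5000 to 8000 bases the median deviation in knockout 1 was -0.07 over all 1652 genes and -0.27 over the 21 collagen chains, and among genes under 1500 bases it was 0.14. The 3 collagen chains of 1500 to 3000 bases stood at -0.15 in knockout 1, where all genes of that length stood at 0.05. In knockout 3 the same 5000 to 8000 base class stood at -0.04 over all its genes and 0.13 over the collagen chains. Over all genes, every length class lay between -0.06 and -0.04 in knockout 3 and between 0.03 and 0.06 in knockout 2. From genes under 1500 bases to genes of 8000 bases or more, the median deviation rose from -0.05 to 0.11 in control 1. In control 3 it rose from -0.07 to 0.00, and in control 2 these classes stood at 0.00 and 0.01. The median fold change over all genes went from 0.08 to -0.08 between the same classes. With the trend on length removed in each library, the median fold change of the chains was -0.093 and 27 of 32 were below 0, against 50.7% of all genes tested. The remaining part of length and of RNA quality in the pattern was not tested.

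The type I chains, which make up most of the collagen of dentin, were also lowest in knockout 1. Col1a1 (Entrez 12842, chromosome 11, 94936224 to 94953042 in GRCm38) reached 4042.67, 4703.32 and 6639.76 FPKM in knockouts 1, 2 and 3, compared with 5777.44, 5488.17 and 6945.61 FPKM in controls 1, 2 and 3. Knockouts 1 and 2 lay below every control and knockout 3 above 2 of the 3 controls. The means were 5129 ± 1350 and 6070 ± 772 FPKM (SD, n = 3 each), or -0.27 as a log2 fold change (SE 0.168, adjusted p = 0.891 by limma). Without knockout 1 it was -0.112, and without knockout 3 it was -0.470. Col1a2 (Entrez 12843, chromosome 6, 4505618 to 4541543) was at 1934.08, 2271.08 and 2808.00 FPKM in the knockouts and at 2508.88, 2370.35 and 2790.72 FPKM in the controls. Here knockout 3 was the highest of all 6 libraries, and the log2 fold change was -0.14 (SE 0.129, limma adjusted p = 0.909). It was -0.014 without knockout 1 and -0.283 without knockout 3.

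Type III and type V chains, which share fibrils with type I in pulp and other soft connective tissue, overlapped between the groups. Col3a1, the single chain of type III, was at 129.22, 123.04 and 188.87 FPKM in the knockouts and 159.26, 146.71 and 164.88 FPKM in the controls, with knockout 3 highest. Col5a2 was at 63.29, 69.64 and 86.75 FPKM against 84.85, 76.55 and 89.37 FPKM. Knockouts 1 and 2 were again the lowest, and its log2 fold change was -0.20 (SE 0.107, limma adjusted p = 0.890). Col5a1, its partner in type V, had means of 20.2 ± 4.77 and 23.9 ± 1.83 FPKM (SD, n = 3 each). Col5a3, a minor chain of type V, had means of 2.23 ± 0.488 and 2.78 ± 0.515 FPKM.

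Type XI chains, which nucleate fibrils in cartilage and elsewhere, included Col11a2, which with Col3a1 followed the type I chains in level. Col11a2 was at 100.46, 137.81 and 178.88 FPKM in the knockouts and 165.98, 150.55 and 183.58 FPKM in the controls. Knockouts 1 and 2 were below all controls, and knockout 3 lay between the controls. Its log2 fold change was -0.29 (SE 0.164, limma adjusted p = 0.891), which became -0.081 without knockout 1 and -0.494 without knockout 3. Col11a1 was at 35.39, 39.23 and 49.13 FPKM against 49.45, 43.30 and 55.37 FPKM, or -0.26 as a log2 fold change (SE 0.119, unadjusted p = 0.0515 and adjusted p = 0.873 by limma). Only knockout 3 of the knockouts overlapped the controls.

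Col2a1, the chain of type II collagen of cartilage, had the lowest fold change of the tested chains. It was at 1.58, 1.33 and 2.58 FPKM in the knockouts and 2.30, 2.47 and 3.24 FPKM in the controls, a log2 fold change of -0.39 (95% interval -0.74 to -0.05, unadjusted p = 0.0298 and adjusted p = 0.869 by limma). Knockout 3 lay within the control range and the other knockouts below it. Its levels correspond to between 122 and 303 estimated reads per library. The cartilage proteoglycan Acan was between 0.10 and 0.20 FPKM in all libraries, the cartilage matrilin Matn1 was listed at 0 in 5 libraries and at 0.03 FPKM in control 2, and Col10a1, the collagen of hypertrophic cartilage, was between 0.03 and 0.30 FPKM. Of 8 cartilage markers 6 were in the table and 2, Sox9 and Hapln1, were tested. The summed FPKM of the 6 was between 23.5 and 25.8 in the knockouts and between 23.2 and 28.8 in the controls, of which Sox9, also made outside cartilage, gave 21.0 ± 0.995 and 21.8 ± 3.13. Hapln1, a link protein of cartilage matrix, had means of 3.49 ± 0.194 and 4.31 ± 0.255 FPKM (SD, n = 3 each) with no overlap between the groups, and an adjusted p of 0.858 by limma.

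In the fibrillar chains with shorter helices the highest of the knockouts was knockout 2, while in the other fibrillar chains it was knockout 3. Col27a1 was at 52.30, 63.67 and 56.38 FPKM in the knockouts and 62.79, 60.90 and 55.68 FPKM in the controls, with knockout 2 the highest of the 6. Col24a1 was at 6.17, 7.07 and 6.49 FPKM against 7.52, 6.91 and 7.55 FPKM. Knockout 2 overlapped the controls, and the log2 fold change was -0.14 (SE 0.0836, limma adjusted p = 0.891). All 11 fibrillar chains had estimates below 0, between -0.39 and -0.06 with a median of -0.23, and 0 of 11 passed the threshold.

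Type IV chains of basement membranes fell into an abundant pair and 4 scarce chains. Col4a1 was at 58.91, 67.63 and 84.45 FPKM in the knockouts and 76.44, 70.62 and 72.18 FPKM in the controls. Col4a2 was at 40.04, 47.68 and 61.45 FPKM against 53.14, 50.16 and 51.81 FPKM. In both genes knockout 1 was the lowest and knockout 3 the highest of the 6 libraries, and the log2 fold changes were -0.07 (SE 0.110) and -0.08 (SE 0.123, limma adjusted p = 0.948 for each). Among the controls the SD was 3.01 FPKM for Col4a1 and 1.49 FPKM for Col4a2. Col4a5, a chain of specialised basement membranes and the tested chain nearest the filter, had means of 1.11 ± 0.127 and 1.39 ± 0.101 FPKM (SD, n = 3 each). Its groups did not overlap, with 1.19 FPKM the highest knockout and 1.30 FPKM the lowest control, and the log2 fold change was -0.18 (SE 0.0986, limma adjusted p = 0.890). Col4a6 stood between 0.16 and 0.35 FPKM, Col4a4 between 0.08 and 0.15 FPKM and Col4a3 between 0.03 and 0.08 FPKM, and none of these was tested.

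Col4a1 and Col4a2 lie head to head on chromosome 8 and, of the 9 ratios of chains examined, theirs moved least. Their annotated starts in RefSeq (GRCm38.p6), at 11312826 on the minus strand and 11312805 on the plus strand, are 21 bases apart. These bases are no gap, because the genes overlap at their starts, and the listed gene span of Col4a1 reaches 11312889. The window from 250 bases before to 50 bases after the start of Col4a1, chr8:11312777-11313076 on the minus strand, shares 78 bases with the same window of Col4a2. These shared bases are in capitals.
Col4a1: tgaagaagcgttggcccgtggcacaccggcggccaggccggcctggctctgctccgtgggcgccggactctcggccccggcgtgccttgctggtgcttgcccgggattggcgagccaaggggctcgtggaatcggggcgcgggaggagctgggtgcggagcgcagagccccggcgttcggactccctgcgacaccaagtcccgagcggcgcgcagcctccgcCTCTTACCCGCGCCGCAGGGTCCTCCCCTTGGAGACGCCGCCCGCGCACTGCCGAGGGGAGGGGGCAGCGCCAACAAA

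The ratio of Col4a2 to Col4a1 was 0.680, 0.705 and 0.728 in the knockouts and 0.695, 0.710 and 0.718 in the controls. Its highest value was 1.07 times its lowest, close to the 1.09 of Col6a3 to Col6a1, although Col4a1 itself ranged from 58.91 to 84.45 FPKM. The other type IV genes are also paired on the chromosome, Col4a3 with Col4a4 on chromosome 1 and Col4a5 with Col4a6 on chromosome X. In every library Col4a5 was above Col4a6.

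Ratios within a library do not depend on its total, and for no pair of chains examined did they separate the genotypes. The ratio of Col1a2 to Col1a1 was 0.478, 0.483 and 0.423 in knockouts 1, 2 and 3 and 0.434, 0.432 and 0.402 in the controls. Knockouts 1 and 2, the libraries with the least type I transcript, had the highest ratios. The ratio of Col3a1 to Col1a1 was 0.0320, 0.0262 and 0.0284 against 0.0276, 0.0267 and 0.0237. The ratio of Col5a2 to Col5a1 was 3.66 ± 0.237 in the knockout and 3.50 ± 0.137 in the control, that of Col6a2 to Col6a1 1.07 ± 0.0472 and 1.14 ± 0.0298, and that of Col6a3 to Col6a1 0.378 ± 0.00477 and 0.384 ± 0.0186 (SD, n = 3 each). For Col11a2 to Col11a1 knockout 1 stood apart at 2.84, and the other 5 libraries lay between 3.32 and 3.64.

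**Figure D5:**
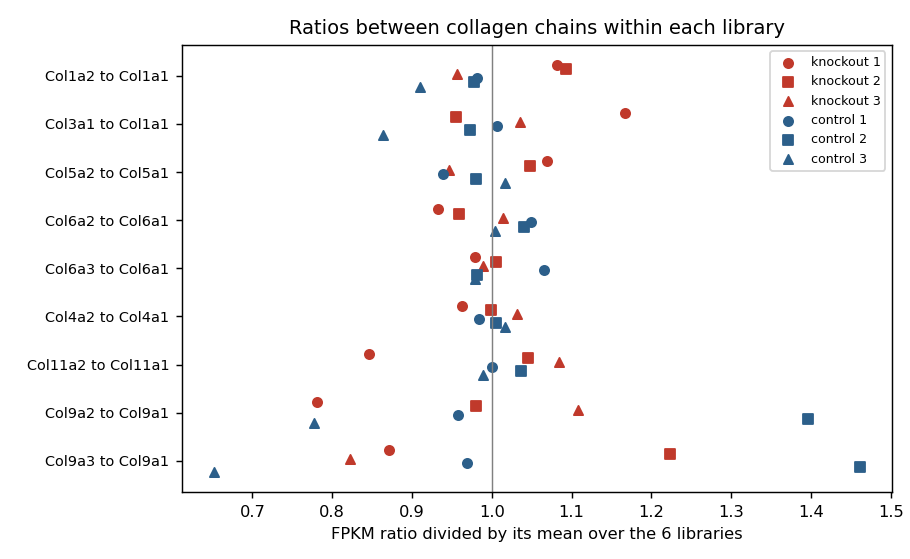
FPKM ratio of each pair of chains divided by its mean over the 6 libraries (x axis) in the 3 knockout libraries (red) and the 3 control libraries (blue). The red and blue symbols overlap in every row; Col4a2 to Col4a1 spans the narrowest range, and the rows over the scarce Col9a1 span the widest.

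Type VI chains, whose filaments surround cells in most connective tissue, held 3 abundant and 3 scarce members. Col6a2 was at 26.74, 30.73 and 40.91 FPKM in the knockouts and 38.82, 35.92 and 37.32 FPKM in the controls, and Col6a1 had means of 30.4 ± 5.39 and 32.8 ± 1.37 FPKM (SD, n = 3 each). Col6a3, the longest of the 3, was at 9.68, 11.08 and 13.71 FPKM against 13.53, 11.65 and 12.58 FPKM. The fold changes of these 3 lay between -0.20 and -0.12, with a lowest limma adjusted p of 0.891. Knockout 1 was lowest and knockout 3 highest in all 3. Col6a4, Col6a5 and Col6a6 are related to Col6a3 and stood at 0.23 FPKM or less in every library. Col6a6 was listed at 0 in knockout 2 and control 2.

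FACIT chains differed among themselves in the library order. Col9a2 and Col9a3, partner chains of type IX, the FACIT of cartilage fibrils, were the most abundant FACIT members. Col9a2 was at 28.08, 32.93 and 38.49 FPKM in the knockouts and 37.29, 36.81 and 39.60 FPKM in the controls, or -0.20 as a log2 fold change (95% interval -0.42 to 0.02, unadjusted p = 0.0748 and adjusted p = 0.880 by limma). Col9a3 was at 40.82, 53.47 and 37.25 FPKM against 49.14, 50.11 and 43.30 FPKM, so that knockout 3 was its lowest library and knockout 2 its highest. Col9a1, which completes the type IX molecule, was at 0.60, 0.56 and 0.58 FPKM against 0.65, 0.44 and 0.85 FPKM, and Col9a3 exceeded it between 50.9-fold and 114-fold. Col12a1, which associates with type I fibrils, had means of 16.6 ± 4.70 and 18.1 ± 2.65 FPKM, and Col16a1 of 12.8 ± 3.81 and 14.7 ± 1.23 FPKM (SD, n = 3 each). Col22a1, a collagen of tissue junctions, was at 8.01, 11.44 and 8.64 FPKM against 10.26, 9.42 and 9.04 FPKM. Col14a1 was between 4.47 and 6.25 FPKM. Col20a1, the untested chain nearest the filter, was between 0.68 and 0.98 FPKM, and Col19a1 between 0.08 and 0.15 FPKM. Of the 6 tested FACIT chains 6 had estimates below 0, with a median of -0.14, and 0 passed.

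Transmembrane chains included the tested chain with the smallest p. Col23a1 was at 15.15, 17.27 and 19.49 FPKM in the knockouts and 20.69, 19.34 and 21.99 FPKM in the controls, a log2 fold change of -0.25 (SE 0.0938, 95% interval -0.46 to -0.04). Knockout 3 overlapped the lowest control, and the unadjusted p of 0.0225 became an adjusted p of 0.869 by limma. Col13a1, found at neuromuscular and other cell contacts, was at 1.10, 0.91 and 1.72 FPKM against 1.59, 1.70 and 1.80 FPKM (unadjusted p = 0.0535 and adjusted p = 0.874 by limma). Among the knockouts Col13a1 was highest in knockout 3, where muscle transcripts were also highest, and it was not low in control 2, where they were lowest of all. The part of muscle tissue was not tested. Col25a1 was between 1.75 and 3.12 FPKM.

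Chains of epithelial and vascular basement membranes other than type IV showed estimates near 0. Col7a1, the chain of the anchoring fibrils that fasten epithelium to the tissue beneath, was at 20.03, 28.83 and 25.98 FPKM in the knockouts and 30.56, 26.34 and 20.92 FPKM in the controls, a log2 fold change of -0.05 (95% interval -0.37 to 0.26). Both groups spanned about the same range. Col18a1, a basement membrane collagen whose cleavage yields endostatin, was at 25.07, 29.30 and 30.60 FPKM against 31.06, 30.10 and 23.59 FPKM, with a log2 fold change of 0.01 (95% interval -0.23 to 0.25). Col15a1, its close relative, was at 9.54 ± 1.28 and 9.21 ± 0.502 FPKM (SD, n = 3 each), with or 0.04 as a log2 fold change (SE 0.0980, adjusted p = 0.967 by limma). These were the 2 tested chains with estimates above 0.

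Col26a1 varied least among the knockouts of all tested chains. It was at 12.70, 12.80 and 13.24 FPKM in the knockouts and 14.99, 13.94 and 13.51 FPKM in the controls. All knockouts lay below all controls, and the log2 fold change was -0.12 (SE 0.0733, limma adjusted p = 0.891). Its coefficient of variation was 2.22% in the knockout and 5.38% in the control. Col28a1, known from peripheral nerve, was between 0.39 and 0.63 FPKM. Col8a1 and Col8a2, network-forming chains known from endothelium and cornea, had means of 2.81 ± 0.320 and 2.93 ± 0.314 FPKM and of 6.88 ± 1.23 and 7.19 ± 0.662 FPKM (SD, n = 3 each).

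The authors' deposited table gives a different count. There, in the authors' deposited table, 28 of the 43 chains (65.1%) are lower with a q-value under 0.05, where 14.1% of its 16662 compared genes are, and 0 are higher, where 10.2% are. For Col1a1 the authors' deposited table lists a log2 ratio of -0.24 with a q-value of 0, for Col11a2 -0.27 with 1.48e-196 and for Col23a1 -0.26 with 3.52e-20. The corresponding limma fold changes were -0.27, -0.29 and -0.25 with adjusted p of 0.891, 0.891 and 0.869. For chains of low level the log2 values were further apart, as for Col4a5 (-0.33 in the authors' deposited table and -0.18 by limma), Col13a1 (-0.43 and -0.28) and Col2a1 (-0.54 and -0.39); the limma values carry a pseudocount. The q-values of the authors' deposited table come with no measure of the spread between replicates, and no source used here names the test behind them.

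Genes that fold, modify, process and cross-link collagen gave 0 calls among 32 tested. Their median fold change was -0.06, with 26 of 32 below 0. The estimate farthest from 0 ran the other way. Colgalt2, a collagen galactosyltransferase, was at 4.39, 4.97 and 4.02 FPKM in the knockouts and 3.06, 3.21 and 2.17 FPKM in the controls. All knockouts lay above all controls, and its log2 fold change was 0.53 (SE 0.121, adjusted p = 0.460 by limma). Serpinh1, the collagen chaperone HSP47, was at 414.39, 416.44 and 416.63 FPKM in the knockouts and 422.32, 434.75 and 415.07 FPKM in the controls. It thus stayed within a narrow band in libraries between which Col1a1 ranged from 4042.67 to 6945.61 FPKM. Ppib, a prolyl isomerase of the prolyl 3-hydroxylation complex, was at 343 ± 22.7 and 307 ± 9.17 FPKM (SD, n = 3 each). Its groups did not overlap, and its log2 fold change was 0.16 (limma adjusted p = 0.873). Among 8 tested collagen receptors 0 passed and 7 were below 0, with a median of -0.13. Itgb1, the beta subunit of collagen-binding integrins, was at 86.0 ± 1.80 and 86.1 ± 1.69 FPKM, and the receptor kinase Ddr1 at 57.6 ± 4.31 and 58.2 ± 8.87 FPKM (SD, n = 3 each). Among 10 tested matrix partners of fibrils 0 passed and 9 were below 0, with a median of -0.16. Sparc, a collagen-binding protein, was at 1908.20, 2058.17 and 2456.69 FPKM in the knockouts and 2089.55, 2172.65 and 2484.05 FPKM in the controls, with knockout 1 lowest and knockout 3 and control 3 highest as for Col1a1. Bgn, the small proteoglycan biglycan, was at 349.7 ± 47.9 and 389.7 ± 37.5 FPKM, also with knockout 1 lowest and control 3 highest. The next most abundant partners, Lum and Dcn, instead had knockout 3 lowest of all libraries. Lum was at 217.87, 218.85 and 208.48 FPKM in the knockouts and 229.32, 238.54 and 234.78 FPKM in the controls. Dcn was at 208.53, 199.98 and 197.60 FPKM against 223.31, 220.47 and 222.05 FPKM. The groups overlapped for neither (limma adjusted p = 0.880 for Lum and 0.873 for Dcn).

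Lists of cell type markers gave 0 calls as well, although several single markers were farther from 0 than any collagen chain. The summed FPKM of 5 odontoblast markers was 715, 787 and 972 in the knockouts and 896, 836 and 972 in the controls, and 4 of 4 tested were below 0. Dspp, the dentin phosphoprotein precursor, led with 714 ± 124 and 773 ± 61.7 FPKM, followed by Nes, an intermediate filament of odontoblast processes, with 43.3 ± 8.23 and 51.4 ± 5.53 FPKM (SD, n = 3 each). Knockout 1 was lowest in this sum and knockout 3 tied with control 3 for highest. The part of the number of odontoblasts in the collagen values was not tested.

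Of 7 bone markers 5 were below 0, with a median of -0.16. Their sum was made up mostly of the osteocalcin genes Bglap (1853 ± 112 and 1690 ± 255 FPKM) and Bglap2 (395 ± 9.18 and 338 ± 47.8 FPKM, SD, n = 3 each), whose estimates were above 0 and which are near-identical copies, so that reads could be split between them. Ibsp, bone sialoprotein, was at 46.02, 41.78 and 43.56 FPKM in the knockouts and 58.07, 67.02 and 59.85 FPKM in the controls. All knockouts lay below all controls, and the log2 fold change was -0.48 (SE 0.0749, unadjusted p = 4.82e-05 and adjusted p = 0.144 by limma). Spp1, osteopontin, was at 19.79, 18.60 and 36.22 FPKM against 40.06, 39.36 and 33.64 FPKM, with a log2 fold change of -0.64 (SE 0.195, unadjusted p = 0.00720 and adjusted p = 0.736 by limma). Knockout 3 overlapped the controls.

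All 3 tested osteoclast markers were below 0 with no overlap between the groups, and their median was -0.45. Ctsk, cathepsin K, which degrades collagen in bone resorption, was at 32.03, 33.11 and 42.02 FPKM in the knockouts and 42.53, 43.25 and 45.50 FPKM in the controls (log2 fold change -0.30, adjusted p = 0.784 by limma). Acp5, the acid phosphatase of osteoclasts, was at 14.46, 12.94 and 17.39 FPKM against 21.46, 22.48 and 18.26 FPKM (log2 fold change -0.45, adjusted p = 0.515 by limma). For Mmp9, a gelatinase, the log2 fold change was -0.49 (adjusted p = 0.607 by limma). In all 3 the highest knockout was knockout 3, as for most collagen chains, and the part of bone tissue in the collagen values was not tested.

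Of 4 tested ligament and tendon markers 2 were below 0. The most abundant were Tnmd, a tendon membrane protein, with 11.9 ± 2.01 and 10.6 ± 0.822 FPKM, and Thbs4, a matrix thrombospondin, with 5.72 ± 0.865 and 6.26 ± 1.27 FPKM (SD, n = 3 each). Tnn, tenascin N, was at 0.48, 0.70 and 0.78 FPKM in the knockouts and 1.87, 1.29 and 1.19 FPKM in the controls, without overlap (log2 fold change -0.56, adjusted p = 0.460 by limma). Every control but no knockout reached 1 FPKM for Tnn, so it was tested because of its control values. The sign of Tnn and its lack of overlap cannot be separated from this selection, and Tnn is 1 of the 2 markers below 0. Of 6 ameloblast markers 4 were below 0, with a median of -0.05, and the enamel matrix genes Amelx (188227 ± 18659 and 186206 ± 15843 FPKM) and Ambn (38372 ± 2324 and 37884 ± 2816 FPKM, SD, n = 3 each) led. Of 5 endothelial markers 2 were below 0, with a median of 0.03. Of 5 skeletal muscle markers tested 5 were below 0, with a median of -0.29 and no adjusted p under 0.941. Acta1, the actin of skeletal muscle, was at 5.16, 5.29 and 25.39 FPKM in the knockouts and 23.82, 2.22 and 22.41 FPKM in the controls.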

How the data were processed

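RNA from first mandibular molars was enriched for mRNA and sequenced on a BGISEQ-500 instrument, per the labels' protocols. The submitters' processing notes name Bowtie2 and the build mm10, and no source used here names the tool behind FPKM. The deposited table holds FPKM with 2 decimals for 6 libraries, the length of the longest transcript, and the authors' log2 ratio, p-value and q-value, per the file headers. Groups came from the genotype label. Replicate numbers in the titles were not treated as pairs in the main analysis. The deviations of same-numbered libraries correlated at -0.06, 0.17 and 0.39, and those of differently numbered libraries between -0.40 and 0.30. Such correlations cannot decide whether the samples were paired.

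Genes that reached 1 FPKM in 3 or more of the 6 libraries entered a test with limma-trend (limma 3.58.1, R 4.3.3) on log2(FPKM + 1), two-sided, group as the only term, with Benjamini-Hochberg adjustment over 11934 genes at a threshold of 0.05. The fit was also run on simulated data with noise drawn separately for each gene. Its outcome is not given here, and it cannot measure power for chains that move together between libraries. Depth was estimated from whole-read steps in low FPKM values, of which between 82.6% and 86.2% lay within 0.15 of a whole read after 20 bases were subtracted from each length (30% by chance). Sums, medians, ratios and counts over the collagen chains are descriptions without a test. Members, lists and tests were chosen with earlier results of these data known. The rule for named genes gave all chains, values per library for the 10 most abundant and the 5 with the smallest p, partner chains, the 2 most abundant genes of each list of collagen enzymes, receptors, matrix partners and odontoblast, bone, osteoclast, cartilage, ligament and ameloblast markers, and Acta1, Krt13 and Acan. Most genes of the endothelial, muscle, mucosal, nerve sheath and erythroid lists are not named, which departs from the rule. Colgalt2, Ibsp, Spp1, Mmp9, Ocstamp, Calcr, Tnn, Matn1, Mepe, Lum and Dcn were named after their values were seen. Coding sequences came from GENCODE M21 transcripts (longest coding transcript per gene), the promoter window and gene positions from RefSeq (GRCm38.p6). Python 3.11.15, numpy 2.4.6, pandas 2.3.3 and matplotlib 3.10.9 were used. Alternatives were a pseudocount of 0.1, no filter, a filter of 5 FPKM, median-ratio scaling, a block on replicate number, omission of each library and, added after the data were seen, removal of the trend with length.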

Additional observations from a re-analysis of the deposited data

How the results depend on the processing

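No collagen chain passed the threshold under any alternative run by limma. The count over all genes was 1 in the main analysis, 0 without a filter on low values (924 genes at an unadjusted p under 0.05), 3 with a filter of 5 FPKM, 2 with the length trend removed, and 1 to 6 with 1 library left out. Replicate number as a block gave 8 calls, none a collagen chain, whose lowest adjusted p was then 0.279. With this block 8 of 32 chains had an unadjusted limma p under 0.05, as did 1140 of all 11934 genes tested. Wnt10a kept its log2 fold change of -0.795 without a filter but had an adjusted p of 0.106 by limma there. That run fitted the variance anew on all 17582 genes, low ones included, and the reason for the larger adjusted p was not tested. With the length trend removed, Col7a1, Col27a1 and Col22a1 turned to 0.024, 0.009 and 0.016. With 1 library left out, estimates near 0 changed sign, for Col4a1 (-0.207 to 0.049), Col4a2 (-0.237 to 0.066), Col7a1 (-0.194 to 0.091), Col8a1 (-0.098 to 0.023), Col8a2 (-0.188 to 0.009), Col15a1 (-0.039 to 0.136), Col18a1 (-0.112 to 0.091), Col22a1 (-0.180 to 0.052) and Col27a1 (-0.135 to 0.005); the cause was not tested. The summed collagen FPKM of the knockout was 0.870 of the control, 0.877 with median-ratio scaling and 0.758 to 0.954 with 1 library left out. The median fold change of the chains lay between -0.252 and -0.071 over all alternatives. Scarce chains rest on few reads, such as 2 to 17 estimated reads per library for Col10a1.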
